A study of Mus musculus with 12 samples.

Results

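Btk, Jchain and Cd24a are 3 genes known from B cells and plasma cells, and they are described here in spleen T cells and kidney cells of diabetes-prone mice, related strains and marrow recipients. The members were the probes that carry exactly 1 of these symbols in the probe annotation, which gave 5 of 20736 probes and 3 of 8708 named genes. Btk and Jchain have 1 probe each and Cd24a has 3.

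RNA was hybridised to mouse cDNA arrays with 2 colour channels, and each deposited value is the log2 ratio of the experimental channel to RNA of B6 mice on the same array. The 6 groups hold 2 arrays each, 12 in all. NOD.H2h4 mice carry another major histocompatibility complex (MHC) haplotype on the background of the NOD strain, which develops autoimmune diabetes. B6.NODIdd1,5 mice are B6 mice that carry the NOD diabetes intervals Idd1, which holds the MHC, and Idd5.

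5 groups were T cells isolated from spleen, of which 3 came from unmanipulated NOD.H2h4, B6.NODIdd1,5 and NOD mice and 2 from marrow recipients, B6 hosts given NOD marrow (NODtoB6) and NOD hosts given B6 marrow (B6toNOD). The remaining group was kidney cells from B6.NODIdd1,5 animals. The other channel was B6 spleen T cells, or B6 kidney cells for the kidney group. The labels do not state age, sex, conditioning of the marrow recipients, the number of mice behind an array or how T cells were purified. Nothing says that the 2 arrays of a group came from separate mice, so p-values reflect array-to-array spread, which may be technical. The labels give Cy5 for the experimental RNA and Cy3 for B6 on the 8 strain arrays. They give no dyes for the 4 marrow transfer arrays, whose direction was taken to be the same, and every sign given below for NODtoB6 and B6toNOD rests on that assumption.

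Btk is a tyrosine kinase of the Tec family that acts below the B cell receptor, and it is also made in myeloid cells but not in mature T cells. Jchain encodes the joining chain that links IgM and IgA into polymers and is made by antibody-secreting cells. Cd24a encodes a small glycoprotein anchored to the membrane by a lipid, found on B cells, immature T cells, granulocytes and red cell precursors and lost from most resting mature T cells. In bulk RNA of this kind, fewer cells of a type and less RNA per cell cannot be told apart.

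Values are log2 ratios to B6 after each array was centred on its median, so 0 is the typical feature of the array. Before centring, the array medians averaged -0.18 in B6.NODIdd1,5 T cells, -0.80 in NOD.H2h4, -0.15 in NOD, -0.46 in B6.NODIdd1,5 kidney, -0.23 in NODtoB6 and -0.76 in B6toNOD, and all changes are relative to these shifts. Each array gave values for 18837 to 20558 probes. The median difference between the 2 arrays of a group over all features was 0.074 to 0.31. The median absolute deviation of the features was 0.20 and 0.24 on the NOD arrays and 0.60 to 0.61 on the B6toNOD arrays, so the same log2 ratio ranks higher on a NOD array than on a B6toNOD array. A ratio carries no absolute level, so whether each RNA was abundant or near background in T cells or kidney is unknown. For the same reason the T cell label could not be checked against levels of T cell genes, and Cd3e, Cd3d, Cd3g, Cd8a and Thy1 had no probe with 1 symbol.

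**Figure D1:**
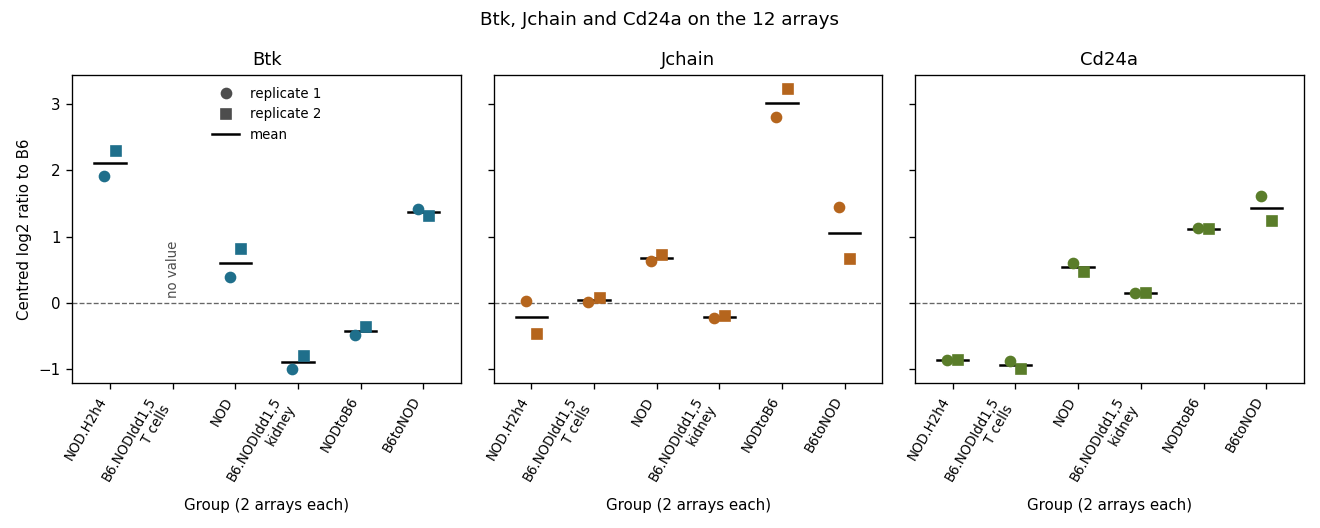
Centred log2 ratio to B6 (y axis) of Btk, Jchain and Cd24a in the 6 groups (x axis), with circles for replicate 1, squares for replicate 2 and a line at the mean of the 2 arrays. The NOD.H2h4 arrays are the highest for Btk, the NODtoB6 arrays are the highest for Jchain, and Cd24a lies below 0 in NOD.H2h4 and B6.NODIdd1,5 T cells and above 0 in the other 4 groups.

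Btk was higher than B6 in NOD.H2h4, NOD and B6toNOD T cells and lower in B6.NODIdd1,5 kidney. Its centred log2 ratio was 1.91 and 2.30 on the 2 NOD.H2h4 arrays, 0.39 and 0.81 on the NOD arrays and -0.99 and -0.81 on the kidney arrays. In the marrow recipients it was -0.48 and -0.36 on the NODtoB6 arrays and 1.42 and 1.32 on the B6toNOD arrays. The arrays of these 5 groups did not overlap with those of any neighbour in the order NOD.H2h4, B6toNOD, NOD, NODtoB6, kidney. The share of all features whose groups separate in this way was not computed. Btk had no value on either B6.NODIdd1,5 T cell array, where 606 features (3.69%) lacked a value on both arrays, so 3 of the 10 comparisons do not exist for this gene.

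Against B6, Btk was 4.31-fold higher in NOD.H2h4 T cells (log2 2.11 ± 0.14, SE, n = 2 arrays, limma adjusted p = 0.000106). In that comparison 39.5% of the features tested passed the threshold of an adjusted p of 0.05, 24.1% as higher and 15.4% as lower, and Btk stood at percentiles 99.6 and 99.8 of the features of the 2 arrays. In B6toNOD it was 2.58-fold higher (log2 1.37 ± 0.14, adjusted p = 0.000301), in a comparison in which 51.4% of features passed and 28.5% were higher, and it stood at percentiles 94.4 and 94.5. The larger fold thus also held the higher rank.

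In NOD T cells Btk was 1.51-fold higher (log2 0.60 ± 0.14, limma adjusted p = 0.0393), where 12.2% of features passed and 9.79% were higher. This call was lost without NOD replicate 1 (0.81, adjusted p = 0.0625) or replicate 2 (0.39, adjusted p = 0.402), without either kidney array (adjusted p = 0.0752), without either NODtoB6 array (adjusted p = 0.0579) and as deposited (0.45, adjusted p = 0.239). The kidney value fell by 0.90 ± 0.14 (adjusted p = 0.00355, 33.5% of features passed, 11.1% as lower), a call that was lost without kidney replicate 1 (-0.81, adjusted p = 0.0584). The NODtoB6 value of -0.42 ± 0.14 did not pass (adjusted p = 0.0692), whereas as deposited, with a shift of -0.23 included, it was -0.65 and passed (adjusted p = 0.0312). Btk therefore passed as higher in 3, as lower in 1 and in neither direction in 1 of its 5 comparisons with B6.

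The MHC haplotype comparison on the NOD background sets NOD.H2h4 against NOD. Btk was higher in NOD.H2h4 by 1.51 ± 0.19 on the log2 scale, or 2.84-fold (limma adjusted p = 0.00547), and 18.2% of features passed in this difference, 12% as higher and 6.22% as lower. With the arrays scaled to the same spread the difference was 0.72 and did not pass (adjusted p = 0.0671). Between the reciprocal marrow transfers Btk was lower in NODtoB6 than in B6toNOD by 3.45-fold (log2 -1.79 ± 0.19, adjusted p = 0.000819), where 36.0% of features passed, 22.2% as lower and 13.8% as higher. If the dyes of the B6toNOD arrays ran the other way, this difference would be 0.95.

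Jchain was high in both marrow recipient groups, and most so in NODtoB6. Its centred log2 ratio was 2.80 and 3.23 on the NODtoB6 arrays and 1.45 and 0.67 on the B6toNOD arrays. It was 0.026 and -0.47 on the NOD.H2h4 arrays, 0.0067 and 0.076 on the B6.NODIdd1,5 T cell arrays and 0.63 and 0.73 on the NOD arrays. On the kidney arrays it was -0.23 and -0.20. The NODtoB6 arrays stood clear of all others, the B6toNOD arrays overlapped with the NOD arrays, and the NOD.H2h4, B6.NODIdd1,5 T cell and kidney arrays lay around 0, with the NOD.H2h4 range holding both kidney arrays. For this separation too, no share over all features was computed.

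In NODtoB6 Jchain was 8.09-fold higher than B6 (log2 3.02 ± 0.20, n = 2 arrays, limma adjusted p = 0.000104), where 26.8% of features passed and 13.8% were higher, and it stood at percentiles 99.5 and 99.6 of the 2 arrays. In B6toNOD it was 2.08-fold higher (log2 1.06 ± 0.20, adjusted p = 0.00334), at percentiles 94.6 and 79.1. In that comparison 51.4% of features passed and 28.5% were higher. As deposited the B6toNOD value was 0.30 and did not pass (adjusted p = 0.299). The difference between the 2 recipient groups was 1.96 ± 0.28 on the log2 scale, or 3.89-fold, higher in NODtoB6 (adjusted p = 0.00147). Of all features 36.0% passed in this difference, 13.8% as higher and 22.2% as lower. With the dyes of either recipient group the other way round, the sign of that group's value would turn.

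The other 4 comparisons of Jchain with B6 did not pass. The NOD.H2h4 value was -0.22 ± 0.20 (limma adjusted p = 0.418), beside 0.041 ± 0.20 in B6.NODIdd1,5 T cells (adjusted p = 0.904) and -0.22 ± 0.20 in the kidney (adjusted p = 0.454). Without NOD.H2h4 replicate 2 the NOD.H2h4 value was 0.026. As deposited, where the typical feature of the NOD.H2h4 arrays lies at -0.80, the value was -1.02 and passed, whereas it ranked at percentiles 51.4 and 26.6 of those arrays. The NOD value was 0.68 ± 0.20 (adjusted p = 0.0701), at percentiles 98.0 and 97.6 of the NOD arrays, and it passed without either B6toNOD array (adjusted p = 0.0256) and with the arrays scaled to the same spread (1.19).

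The 3 differences of Jchain among the strain groups did not pass either. NOD.H2h4 was lower than NOD by 0.90 ± 0.28 in the point estimate (limma adjusted p = 0.0655), a difference that passed without either B6toNOD array (adjusted p = 0.0229), as deposited (-1.55) and with scaled arrays (-1.37). B6.NODIdd1,5 T cells minus NOD gave -0.64 ± 0.28 (adjusted p = 0.142), and -1.14, which passed, with scaled arrays. B6.NODIdd1,5 T cells minus B6.NODIdd1,5 kidney gave 0.26 ± 0.28 (adjusted p = 0.59).

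Cd24a passed in 5 of its 6 comparisons with B6, lower in 2 groups and higher in 3, where the share of all features that passed was 30.3% in B6.NODIdd1,5 T cells, 39.5% in NOD.H2h4, 12.2% in NOD, 26.8% in NODtoB6 and 51.4% in B6toNOD. Averaged over its 3 probes, its centred log2 ratio was -0.87 and -0.86 on the NOD.H2h4 arrays and -0.88 and -0.997 on the B6.NODIdd1,5 T cell arrays. It was 0.60 and 0.47 on the NOD arrays and 0.15 on both kidney arrays. In the marrow recipients it was 1.14 and 1.11 on the NODtoB6 arrays and 1.62 and 1.23 on the B6toNOD arrays. The order was B6toNOD, NODtoB6, NOD, kidney, NOD.H2h4 and B6.NODIdd1,5 T cells, with no overlap between groups, although the means of the last 2 groups differed by less than the gap between the 2 B6.NODIdd1,5 T cell arrays. How many of all features show no overlap between groups was not counted.

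Against B6, Cd24a was 1.82-fold lower in NOD.H2h4 T cells (log2 -0.86 ± 0.097, n = 2 arrays, limma adjusted p = 0.000409). In B6.NODIdd1,5 T cells it was 1.92-fold lower (log2 -0.94 ± 0.097, adjusted p = 0.000476), where 30.3% of features passed and 15.9% were lower. Those are percentiles 13.4 and 14.3 of the NOD.H2h4 arrays and 11.5 and 9.12 of the B6.NODIdd1,5 T cell arrays.

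The higher groups were NODtoB6, at 2.18-fold (log2 1.12 ± 0.097, limma adjusted p = 0.000372), and B6toNOD, at 2.69-fold (log2 1.43 ± 0.097, adjusted p = 2.47e-05). NOD T cells were 1.45-fold higher (log2 0.54 ± 0.097, adjusted p = 0.014). The NOD call was lost without NOD replicate 1 (0.47, adjusted p = 0.121) or replicate 2 (0.60, adjusted p = 0.115) and as deposited (0.39, adjusted p = 0.3). The kidney value of 0.15 ± 0.097 did not pass (adjusted p = 0.288), and as deposited it was -0.31.

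Between groups, Cd24a was 2.64-fold lower in NOD.H2h4 than in NOD (log2 -1.40 ± 0.14, limma adjusted p = 0.00196). B6.NODIdd1,5 T cells were 2.78-fold lower than NOD (log2 -1.47 ± 0.14, adjusted p = 0.00046), where 24.3% of features passed and 14.9% were lower. These differences share the NOD arrays, so they are not independent of each other. In B6.NODIdd1,5 mice the ratio to B6 was lower in T cells than in kidney by 1.09 ± 0.14 on the log2 scale (adjusted p = 0.00181), where 21.0% of features passed and 14.1% were lower. As deposited that difference was -0.81 and did not pass (adjusted p = 0.0709). The recipient groups differed by -0.30 ± 0.14, NODtoB6 minus B6toNOD, which did not pass (adjusted p = 0.126), while without B6toNOD replicate 2 it was -0.50 and passed (adjusted p = 0.0128).

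**Figure D2:**
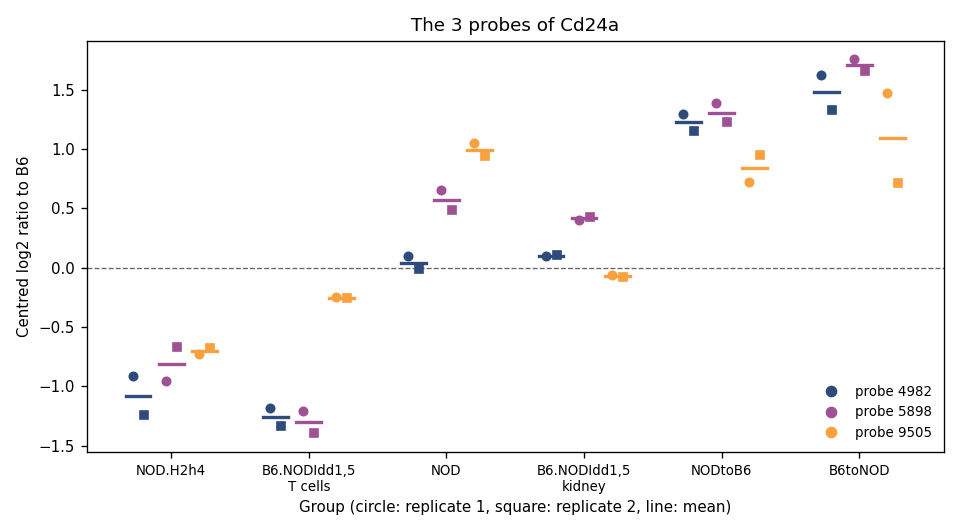
Centred log2 ratio to B6 (y axis) of the 3 Cd24a probes in the 6 groups (x axis), with circles for replicate 1, squares for replicate 2 and lines at the group means. Probe 9505 lies nearer to 0 than the other 2 probes in B6.NODIdd1,5 T cells and is the highest of the 3 in NOD.

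The 3 Cd24a probes had the same sign in B6.NODIdd1,5 T cells, in NOD.H2h4 and in both recipient groups, and they differed in size. In B6.NODIdd1,5 T cells the group means were -1.26 for probe 4982, -1.30 for probe 5898 and -0.25 for probe 9505, and the last of these did not pass on its own (adjusted p = 0.272). In NOD they were 0.042, 0.57 and 0.99 in the same order, and the first did not pass (adjusted p = 0.929). In kidney they were 0.099, 0.42 and -0.068, so the sign depended on the probe there, and probe 5898 passed (adjusted p = 0.0136).

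Over the arrays, probes 4982 and 5898 differed by a median of 0.22, whereas probe 9505 differed from them by medians of 0.57 and 0.46. The largest gaps, 1.08 and 1.14, both fell on B6.NODIdd1,5 T cells replicate 2. For the T cell minus kidney difference probe 9505 gave -0.19 (adjusted p = 0.634), against -1.36 and -1.72 for the other probes. For NOD.H2h4 minus NOD the 3 probes gave -1.12, -1.38 and -1.70, and all passed. Which transcripts or related sequences each probe binds was not examined, since the probe sequences were not used here.

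The 3 genes differed in their pattern over the groups. The mean absolute difference between their centred log2 ratios was 1.39 for Btk and Jchain (10 arrays), 1.20 for Btk and Cd24a (10 arrays) and 0.73 for Jchain and Cd24a (12 arrays). Btk exceeded Cd24a by up to 3.16, on a NOD.H2h4 array, and Btk minus Jchain was as low as -3.59, on a NODtoB6 array. In NOD and in B6toNOD all 3 genes lay above 0 on both arrays, at percentiles 90.9 to 98.3 in NOD and 79.1 to 96.3 in B6toNOD.

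**Figure D3:**
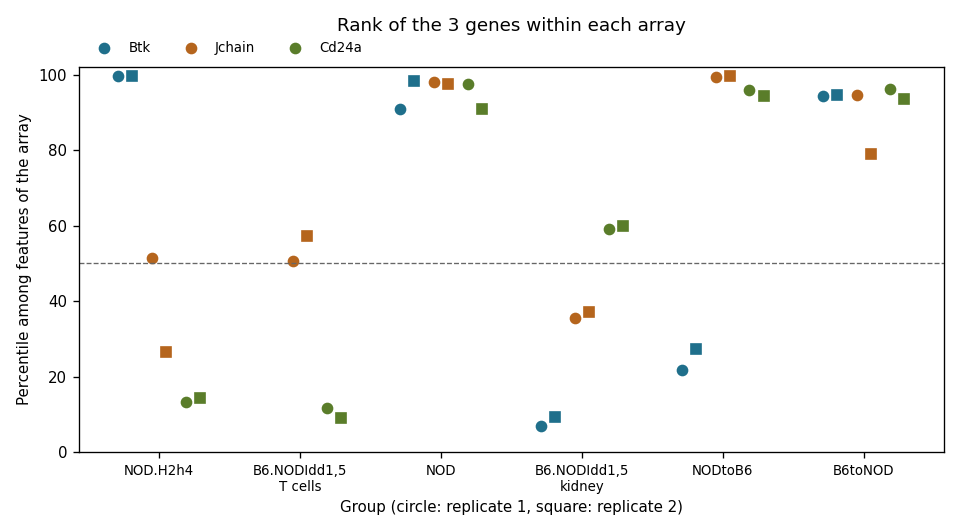
Percentile of Btk, Jchain and Cd24a among all features of each array (y axis, 50 is the median feature) in the 6 groups (x axis), with circles for replicate 1 and squares for replicate 2. All 3 genes rank above percentile 79 in NOD and B6toNOD, Btk ranks below the other 2 in NODtoB6 and above them in NOD.H2h4, and Btk has no value in B6.NODIdd1,5 T cells.

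Among 6914 genes with a value on all arrays, those most like each member were found by the smallest mean absolute difference. For Btk, over the 10 arrays that measured it, they were Kmo (0.31), Gm13238 (0.40) and Gtse1 (0.44). Kmo, an enzyme of tryptophan breakdown, averaged 1.70 in NOD.H2h4, -0.97 in kidney and 1.35 in B6toNOD, but 0.014 in NOD. For Jchain, over 12 arrays, they were Vamp8 (0.40), a vesicle fusion protein, Dicer1 (0.47) and Anxa2 (0.47). On single arrays these differed from Jchain by up to 1.67, 0.995 and 1.43. In NODtoB6 they averaged 1.92, 2.28 and 1.92, beside 3.02 for Jchain, and Anxa2 was higher in B6toNOD (2.13). For Cd24a the most alike were Kcnd3 (0.23), a potassium channel subunit, Actg1 (0.23), a cytoplasmic actin, and Paics (0.24), an enzyme of purine synthesis.

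The genes that act with Btk were described from a list of 41 genes of B cell receptor signalling and the Tec kinases, of which 23, Btk included, were on the array. In NOD.H2h4, 2 of 23 passed as higher, Btk among them, and 4 as lower (39.5% of all features passed), with a median of -0.21 beside -0.0077 over all features, and as deposited 1 was higher and 16 were lower. Bank1, a scaffold of B cell receptor signalling, fell by 1.58 ± 0.34 (limma adjusted p = 0.0169), and Blk, a Src family kinase of B cells, fell by 1.44 ± 0.40 (adjusted p = 0.0288). Bank1 did not pass without NOD.H2h4 replicate 1 (-1.81, adjusted p = 0.0779) or replicate 2 (-1.35, adjusted p = 0.15). Blk did not pass without NOD.H2h4 replicate 2 (-0.71, adjusted p = 0.299), without either NOD array (adjusted p = 0.0539) or without either kidney array (adjusted p = 0.0506).

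In B6.NODIdd1,5 T cells, where Btk was not measured, 2 of 21 list genes were higher and 5 lower, where 30.3% of all features passed. Txk, a Tec family kinase of T cells, was higher by 2.51 ± 0.17 (limma adjusted p = 0.000383). Ptpn6, a phosphatase that restrains antigen receptor signalling, fell by 1.01 ± 0.083 (adjusted p = 0.000184), and Plcg2, the phospholipase activated by Btk, fell by 0.95 ± 0.19 (adjusted p = 0.0116). In kidney 1 of 22 was higher and 6 lower (33.5% of all features passed), with Vav2, a guanine nucleotide exchange factor, at -1.81 ± 0.26 (adjusted p = 0.00456; -1.63 and 0.0605 without kidney replicate 2) and the kinase Fyn at -1.01 ± 0.15 (adjusted p = 0.00226).

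In NOD T cells 3 of 21 passed, all as higher (12.2% of all features passed), namely Btk, Fyn at 0.81 ± 0.15 (limma adjusted p = 0.0156) and Rac2, a small GTPase of blood cells, at 0.44 ± 0.075 (adjusted p = 0.0113). Both lost the call without NOD replicate 1 (0.86 with adjusted p = 0.0921 for Fyn, 0.47 with 0.0646 for Rac2) or replicate 2 (0.77 with 0.183, 0.41 with 0.145). As deposited, Btk (0.45), Fyn (0.66) and Rac2 (0.29) did not pass, in a setting in which 1.2% of all features did.

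In NODtoB6 3 of 22 were higher and 3 lower, about the 26.8% of all features that passed. Blk, at -1.40 ± 0.40 (limma adjusted p = 0.0444), and Bank1, at -1.26 ± 0.34 (adjusted p = 0.0484), were lower, and Rac2 was higher by 0.58 ± 0.075 (adjusted p = 0.00221). Blk did not pass without NODtoB6 replicate 1 (-1.56, adjusted p = 0.145) or replicate 2 (-1.24, adjusted p = 0.246), and Bank1 did not pass without replicate 1 (-0.92, adjusted p = 0.287) or replicate 2 (-1.61, adjusted p = 0.113). Both also lost the call without either NOD array (0.0769 for Blk, 0.0555 for Bank1) or either kidney array (0.0764 and 0.0881), and Bank1 without either NOD.H2h4 array (0.0788).

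In B6toNOD 5 of 16 were higher and 4 lower, a share near the 51.4% of all features that passed. Cd79b, a signalling subunit of the B cell receptor, fell by 2.04 ± 0.55 (limma adjusted p = 0.0168), Rac2 was higher by 1.79 ± 0.075 (adjusted p = 4.62e-06) and the adaptor Grb2 was higher by 1.41 ± 0.38 (adjusted p = 0.0168). Cd79b did not pass without B6toNOD replicate 2 (-0.73, adjusted p = 0.173) and Grb2 did not pass without B6toNOD replicate 1 (0.58, adjusted p = 0.207). As deposited, 2 of the 16 were higher and 10 lower, since the typical feature lies at -0.76 there.

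Of the differences, NOD.H2h4 minus NOD had 1 list gene higher, Btk itself, 3 lower and 17 not past (18.2% of all features passed), and the lower genes included Pik3cd, a leukocyte catalytic subunit of phosphoinositide 3-kinase, at -0.86 ± 0.10 (limma adjusted p = 0.00302). B6.NODIdd1,5 T cells minus NOD had 2 higher, 6 lower and 12 not past (24.3%), and B6.NODIdd1,5 T cells minus kidney had 3, 2 and 15 (21.0%). NODtoB6 minus B6toNOD had 1 higher, 5 lower and 10 not past (36.0%). Rac2, at -1.21 ± 0.11 (adjusted p = 0.000201), was lower in NODtoB6 there, like Btk, and Grb2, at -1.94 ± 0.53 (adjusted p = 0.0258), was lower too, though not without NODtoB6 replicate 2 (-1.37, adjusted p = 0.137) or B6toNOD replicate 1 (-1.12, adjusted p = 0.0744).

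**Figure D4:**
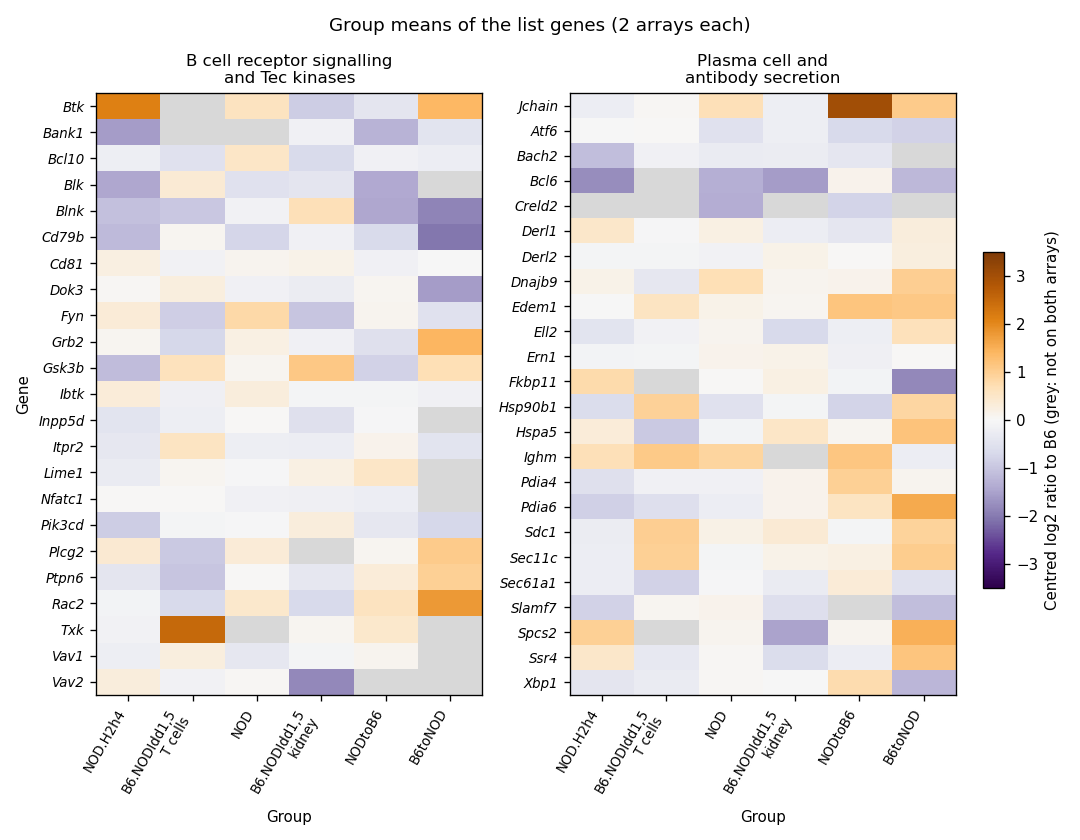
Group means (2 arrays each) of the centred log2 ratio to B6, orange above 0 and purple below 0 with grey where not both arrays had a value, for the measured genes (y axis) of the B cell receptor signalling list and the plasma cell and antibody secretion list in the 6 groups (x axis). Btk in NOD.H2h4 (2.11) and Jchain in NODtoB6 (3.02) are the highest cells of their groups in these lists.

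Genes that act with Jchain were taken from a list of 44 genes of plasma cells and antibody secretion, of which 24, Jchain included, were on the array. In NODtoB6, 5 of 23 were higher, 1 was lower and 17 did not pass (26.8% of all features passed), with a median of 0.074 beside -0.006 over all features. After Jchain the largest were Edem1, which sends misfolded proteins of the endoplasmic reticulum to degradation, at 1.17 ± 0.10 (limma adjusted p = 0.000379), and Ighm, the IgM heavy chain, at 1.12 ± 0.20 (adjusted p = 0.00924). Ighm did not pass without NODtoB6 replicate 2 (1.01, adjusted p = 0.0825). The light chain gene Igkc and the heavy chain genes Igha, Ighg1 and Ighg2b had no probe with 1 symbol.

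In B6toNOD, 9 of 22 were higher, 4 were lower and 9 did not pass (51.4% of all features passed), with a median of 0.46 beside -0.036 over all features. Pdia6, a disulphide isomerase of the endoplasmic reticulum, was higher by 1.56 ± 0.089 (limma adjusted p = 1.25e-05) and Spcs2, a signal peptidase subunit, by 1.48 ± 0.10 (adjusted p = 5.87e-05). Fkbp11, a prolyl isomerase of secretory cells, fell by 1.81 ± 0.50 (adjusted p = 0.0231). As deposited the split was 3 higher, 10 lower and 9 not past.

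Set against each other, NODtoB6 minus B6toNOD had 5 list genes higher, 6 lower and 10 not past (36.0% of all features passed). Against B6, Xbp1, the transcription factor of secretory cell differentiation, was at 0.76 in NODtoB6 (limma adjusted p = 0.116) and -1.21 in B6toNOD (adjusted p = 0.0145). Its difference was 1.97 ± 0.44 (adjusted p = 0.0116), beside 1.96 for Jchain. Ssr4, a subunit of the translocon, was lower in NODtoB6 by 1.41 ± 0.11 (adjusted p = 0.000134). Sdc1, a plasma cell surface proteoglycan, went the other way from Xbp1, at -0.97 ± 0.16 (adjusted p = 0.00286), and as deposited at -0.44 (adjusted p = 0.0541). Xbp1 did not pass without B6toNOD replicate 2 (1.65, adjusted p = 0.0512) or with scaled arrays (1.55, adjusted p = 0.0507).

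In the strain groups Jchain itself did not pass. NOD.H2h4 had 3 higher, 4 lower and 16 not past (39.5% of all features passed), led by Bcl6, a repressor of plasma cell differentiation, at -1.75 ± 0.28 (limma adjusted p = 0.00307), and as deposited 17 of the 23 were lower. NOD had 1 higher (Ighm, 0.90 ± 0.20, adjusted p = 0.0331), 1 lower (Bcl6, -1.32 ± 0.28, adjusted p = 0.0286) and 22 not past (12.2%). Neither passed as deposited (0.75 for Ighm, -1.47 for Bcl6), without NOD replicate 1 (0.87 and 0.203 for Ighm, -1.28 and 0.184 for Bcl6) or without replicate 2 (0.93 and 0.244, -1.36 and 0.227), and Ighm was also lost without either NOD.H2h4 array (0.0655).

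B6.NODIdd1,5 T cells had 4 higher, 3 lower and 13 not past (30.3% of all features passed), led by Ighm at 1.09 ± 0.20 (limma adjusted p = 0.00783) and Sdc1, the plasma cell surface proteoglycan, at 0.99 ± 0.11 (adjusted p = 0.000754). The kidney had 2 higher, 3 lower and 17 not past (33.5%), led by Bcl6 at -1.58 ± 0.28 (adjusted p = 0.00587), which did not pass without kidney replicate 1 (-1.22, adjusted p = 0.0854). The differences had 2 higher and 1 lower of 23 for NOD.H2h4 minus NOD (18.2%), 1 and 3 of 20 for B6.NODIdd1,5 T cells minus NOD (24.3%), and 2 and 2 of 19 for B6.NODIdd1,5 T cells minus kidney (21.0%).

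A list of 20 genes of lipid-anchored leukocyte surface proteins and partners of Cd24a, of which 10 with Cd24a were on the array, was counted in the same way. With the share of all features that passed in brackets, it had 3 higher and 3 lower of 8 in B6.NODIdd1,5 T cells (30.3%), 1 and 4 of 9 in NOD.H2h4 (39.5%), 2 and 1 of 10 in NOD (12.2%), 1 and 2 of 9 in kidney (33.5%), 2 and 2 of 9 in NODtoB6 (26.8%) and 3 and 2 of 7 in B6toNOD (51.4%). As deposited, 8 of the 9 were lower in NOD.H2h4 and none was higher.

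**Figure D5:**
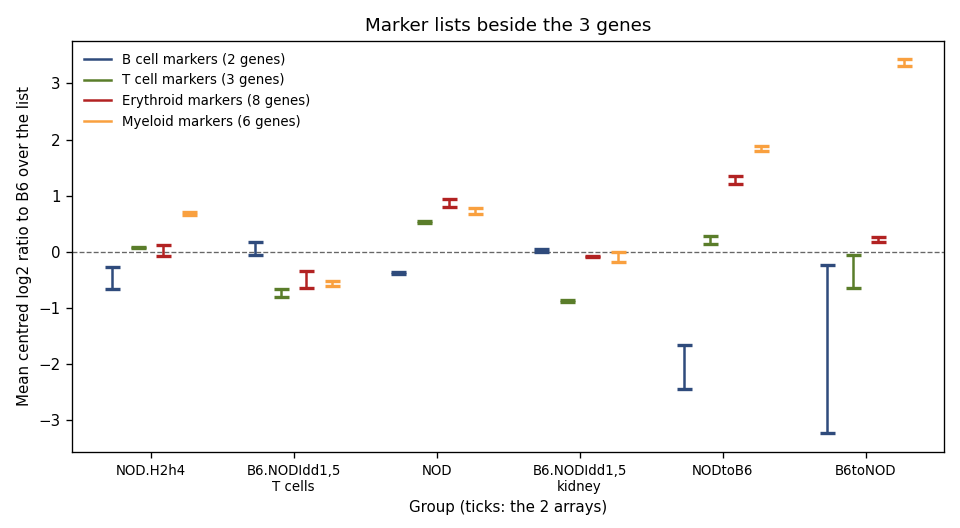
Mean centred log2 ratio to B6 (y axis) over the marker genes with a value on all arrays, for B cell, T cell, erythroid and myeloid markers in the 6 groups (x axis), with ticks at the 2 arrays of a group joined by a line. Myeloid markers are highest in B6toNOD (3.30 to 3.43), erythroid markers are highest in NODtoB6 (1.20 to 1.34), and the mean of the 2 B cell markers is below 0 in NOD.H2h4, NOD, NODtoB6 and B6toNOD.

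Few markers of B cells were measured. Of 20 B cell markers 5 were on the array (Cd79b, Ighm, Blk, Bank1 and Vpreb3), while Ms4a1, Cd79a and Pax5 had no probe with 1 symbol. In NODtoB6, where Jchain and Cd24a were higher, 3 of the 5 markers passed as lower and 1, Ighm, as higher, beside 26.8% of all features past the threshold in either direction. Vpreb3, a partner of the precursor B cell receptor, had the largest fall, by 3.45 ± 0.72 (limma adjusted p = 0.0135), and was at -2.48 without NODtoB6 replicate 2 (adjusted p = 0.144). The other 2 lower markers, Blk and Bank1, did not pass without either NODtoB6 array. In NOD.H2h4, where Btk was higher and Cd24a lower, 2 of 5 were lower and 1 higher (39.5% of all features passed). In B6toNOD 1 of 4, Cd79b, passed as lower (51.4% of all features passed), a call that was lost without B6toNOD replicate 2 (-0.73, adjusted p = 0.173).

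The mean over the 2 B cell markers measured on all arrays, Cd79b and Vpreb3, was -0.66 to -0.27 in NOD.H2h4, -0.064 to 0.18 in B6.NODIdd1,5 T cells, -0.39 to -0.36 in NOD and -0.0052 to 0.056 in kidney. It was -2.45 to -1.67 in NODtoB6 and -3.24 to -0.23 in B6toNOD, where the arrays lay far apart. In NODtoB6 Vpreb3 was at -3.45, while Cd79b was at -0.67 and did not pass (limma adjusted p = 0.409). In NOD.H2h4 and NOD the 2 genes had opposite signs and did not pass. Cd79b was at -1.16 in NOD.H2h4 and -0.76 in NOD, and Vpreb3 was at 0.22 and 0.018. Of 9 plasma cell markers, Sdc1 and Xbp1 were on the array. Their mean was 0.075 to 0.62 in NODtoB6 and -0.23 to -0.068 in B6toNOD, and in the 4 strain groups it ran from -0.39 in NOD.H2h4 to 0.43 in B6.NODIdd1,5 T cells. In B6toNOD the 2 genes passed in opposite directions (51.4% of all features passed). Sdc1 was at 0.91 ± 0.11 (limma adjusted p = 0.000436) and Xbp1 at -1.21 ± 0.31 (adjusted p = 0.0145). Sdc1 did not pass as deposited (0.15), nor Xbp1 with scaled arrays (-0.77). In NODtoB6 neither passed, with Xbp1 at 0.76 and Sdc1 at -0.064.

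Myeloid and erythroid markers moved in several of the same groups. Of the 6 myeloid markers on the array (of 19 listed), 6 were higher in NODtoB6 (26.8% of all features passed) and 5 in B6toNOD (51.4%), led by S100a9 at 3.05 ± 0.12 in NODtoB6 (limma adjusted p = 9.68e-06) and 6.68 ± 0.12 in B6toNOD (adjusted p = 6.63e-07). Their mean was 1.80 to 1.88 in NODtoB6, 3.30 to 3.43 in B6toNOD, -0.60 to -0.52 in B6.NODIdd1,5 T cells, 0.65 to 0.70 in NOD.H2h4, 0.68 to 0.78 in NOD and -0.19 to -0.0047 in kidney. Btk had the sign of this mean on both arrays in NOD.H2h4, NOD, B6toNOD and kidney. It did not in NODtoB6, where Btk was at -0.42 and did not pass. In kidney and NOD.H2h4 the markers themselves were split. In kidney 1 of 6 passed as higher and 2 as lower (33.5% of all features passed), with 1 array mean at -0.0047. In NOD.H2h4 4 passed as higher and 2, Lyz2 and Fcgr3, as lower. Cd24a had the sign of the mean on both arrays in NOD, NODtoB6, B6toNOD and B6.NODIdd1,5 T cells. It did not in kidney, nor in NOD.H2h4, where 4 myeloid markers were higher and 2 lower (39.5% of all features passed).

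Of the 11 erythroid markers on the array (of 18 listed), 7 of 10 tested were higher in NODtoB6, led by Hbb-bh1 at 3.10 ± 0.076 (limma adjusted p = 5.28e-06). Of all features 26.8% passed there, 13.8% as higher. In B6.NODIdd1,5 T cells 6 of 11 were lower and 1 higher, where 30.3% of all features passed, 15.9% as lower. In NOD 5 of 11 were higher and 1 lower, where 12.2% of all features passed, 9.79% as higher. NOD.H2h4 had 4 of 10 higher and 1 lower (39.5% of all features passed), led by Hbb-b1 at 1.85 ± 0.13 (adjusted p = 7.09e-05). As deposited 1 was higher and 5 were lower there. B6toNOD had 5 of 10 higher and 1 lower (51.4%), and kidney had 1 of 11 higher and 0 lower (33.5%). The mean over the 8 erythroid markers measured on all arrays was 1.20 to 1.34 in NODtoB6, 0.17 to 0.26 in B6toNOD, -0.64 to -0.35 in B6.NODIdd1,5 T cells, -0.069 to 0.11 in NOD.H2h4, 0.80 to 0.94 in NOD and -0.10 to -0.078 in kidney. Cd24a had the sign of this mean on both arrays in NOD, NODtoB6, B6toNOD and B6.NODIdd1,5 T cells, but not in kidney, where Cd24a was at 0.15, nor in NOD.H2h4, where the mean lay around 0 and Cd24a was at -0.86. Of 20 T cell markers 6 were on the array. They had 0 higher and 4 lower of 5 in B6.NODIdd1,5 T cells (30.3% of all features passed) and 0 and 3 of 6 in kidney (33.5%). Elsewhere there were 1 and 1 of 6 in NOD.H2h4 (39.5%) and 2 and 0 of 6 in NOD (12.2%). The recipients had 1 and 1 of 6 in NODtoB6 (26.8%) and 0 and 1 of 3 in B6toNOD (51.4%). The mean over the 3 measured on all arrays ran from -0.90 in kidney to 0.55 in NOD. The part of other cell types in the values of Btk, Jchain and Cd24a was not tested.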

How the data were processed

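On each of 12 arrays the authors deposited a log2 ratio of experimental over B6 RNA per probe, with the direction per the labels for the strain arrays. No background correction or normalisation is given in the sources used here, spot intensities were not used, and depth in the sense of reads does not apply, so the number of arrays limits the precision. In the strain arrays 146 cells at 16.60964 were treated as missing. Probes with exactly 1 symbol (13033, of which 12850 were found in the RefSeq gene table of the mouse) were averaged per gene, and other probes were kept as unnamed features, giving 16411 features, each array then centred on its median. Group means were fitted with lmFit and eBayes of limma 3.58.1 in R 4.3.3 over all 12 arrays. Residual degrees of freedom were 6 for features with a value on all arrays and fewer where values were missing, as for Btk. Benjamini-Hochberg adjustment was over all features tested in a comparison (two-sided, threshold 0.05). Each SE came from a spread shared by all groups, so it does not describe the arrays of 1 group alone. Features lacking a value on any array of a compared group were not tested there. A mean ratio against 0 does not include variation of the B6 RNA, and dye bias of single genes stays in it, as no dye swap is labelled.

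There were 6 comparisons with B6 and 4 differences between groups. Named genes were the members with every probe, the 3 genes most like each member, up to 3 genes past the threshold per comparison from the signalling and the secretion lists, and up to 2 marker genes. The members, lists and rules were chosen with earlier results of these data known. Alternatives were no centring, arrays scaled to the same spread, a running median over 1001 probes, other rules for missing values and probes, a replicate block, turned signs of the marrow transfer arrays, the mean of the other groups in place of B6, and leaving out each array. No coordinates or sequences are given.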

Additional observations from a re-analysis of the deposited data

Results flagged for a closer look

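Of 10 differences between groups tested in the 3 genes, 6 passed a test of the difference itself, where the share of all features that passed was 18.2% for NOD.H2h4 minus NOD, 24.3% for B6.NODIdd1,5 T cells minus NOD, 21.0% for B6.NODIdd1,5 T cells minus kidney and 36.0% for NODtoB6 minus B6toNOD. Btk was higher in NOD.H2h4 than in NOD T cells by 1.51 ± 0.19 on the log2 scale (limma adjusted p = 0.00547), with the ratio to B6 at 2.11 in NOD.H2h4 and 0.60 in NOD. Btk was lower in NODtoB6 than in B6toNOD, with a difference of -1.79 ± 0.19 (adjusted p = 0.000819) and ratios of -0.42 in NODtoB6 and 1.37 in B6toNOD.

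Jchain was higher in NODtoB6 than in B6toNOD by 1.96 ± 0.28 (limma adjusted p = 0.00147), with both ratios above 0. The signs of the recipient groups rest on the assumed dye direction, and with the B6toNOD arrays turned the Btk difference was 0.95. With the NODtoB6 arrays turned the Jchain difference was -4.07.

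Cd24a differed by -1.40 ± 0.14 between NOD.H2h4 and NOD (limma adjusted p = 0.00196) and by -1.47 ± 0.14 between B6.NODIdd1,5 T cells and NOD (adjusted p = 0.00046). In B6.NODIdd1,5 mice it differed by -1.09 ± 0.14 between T cells and kidney (adjusted p = 0.00181), each compared with B6 cells of the same organ. Groups of 2 arrays were too small to look for single arrays that stand apart.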

How the results depend on the processing

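Of 27 values of the 3 genes, 5 kept their direction and call under every alternative run, and of 604 alternative values 551 did so, 19 lost the call, 16 gained it and 18 turned in sign. Turning the NODtoB6 arrays gave 4 of those 18 and turning the B6toNOD arrays gave 5. By construction this reverses each recipient value against B6, so none of these could be among the 5. As deposited without centring, calls were lost for Btk in NOD (0.45), Jchain in B6toNOD (0.30) and Cd24a in NOD (0.39) and T cells minus kidney (-0.81), calls were gained for Btk in NODtoB6 (-0.65) and Jchain in NOD.H2h4 (-1.02) and NOD.H2h4 minus NOD (-1.55), and signs turned for Jchain in B6.NODIdd1,5 T cells (-0.14) and Cd24a in kidney (-0.31) and NODtoB6 minus B6toNOD (0.23). With scaled arrays Btk in NOD.H2h4 minus NOD lost the call (0.72), Jchain gained it in NOD (1.19), NOD.H2h4 minus NOD (-1.37) and B6.NODIdd1,5 T cells minus NOD (-1.14), and Cd24a in NODtoB6 minus B6toNOD turned to 0.32. After the running median Btk in NODtoB6 passed (-0.53). Against the mean of the other groups, which could not be computed for Btk, Jchain was -0.82 in B6.NODIdd1,5 T cells, -1.14 in NOD.H2h4, -0.056 in NOD, -1.13 in kidney and 0.40 in B6toNOD, and Cd24a was 0.36 in NOD and -0.11 in kidney. Single Cd24a probes gave -0.25 in B6.NODIdd1,5 T cells (9505), 0.042 in NOD (4982), 0.42 (5898) and -0.068 (9505) in kidney and -0.19 in T cells minus kidney (9505). The cause of these changes was not tested.

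With the NODtoB6 arrays turned, Btk was 0.42, Jchain -3.02 and Cd24a -1.12 there, and NODtoB6 minus B6toNOD was -4.07 for Jchain and -2.55 for Cd24a. With the B6toNOD arrays turned, Btk was -1.37, Jchain -1.06 and Cd24a -1.43 there, and the difference was 0.95 for Btk and 2.55 for Cd24a. By construction the named list and marker genes turned too, in NODtoB6 to 1.40 (Blk), 1.26 (Bank1), -0.58 (Rac2), -1.17 (Edem1), -1.12 (Ighm), 3.45 (Vpreb3), -3.10 (Hbb-bh1) and -3.05 (S100a9), in B6toNOD to 2.04 (Cd79b), -1.79 (Rac2), -1.41 (Grb2), 1.81 (Fkbp11), -1.56 (Pdia6), -1.48 (Spcs2) and -6.68 (S100a9), and in the difference to 0.87 (Grb2), 2.37 (Rac2), -0.46 (Xbp1) and 0.94 (Ssr4). Leaving out 1 array gave ranges of 0.39 to 0.81 for Btk in NOD, -0.99 to -0.81 for Btk in kidney, 0.63 to 0.73 for Jchain in NOD, -0.47 to 0.026 for Jchain in NOD.H2h4, -1.15 to -0.65 for Jchain in NOD.H2h4 minus NOD, 0.47 to 0.60 for Cd24a in NOD and -0.50 to -0.11 for Cd24a in NODtoB6 minus B6toNOD. A lone array was assumed to vary like the other groups.

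The replicate block changed none of the 27 calls, and of the named list genes it ended those of Blk (adjusted p = 0.0685) and Bank1 (adjusted p = 0.0581) in NODtoB6. The correlation of the replicate deviations was -0.036 to 0.022 over 15 pairs of groups, so no deviation common to a replicate number was seen. This cannot tell whether arrays of the same number shared mice or handling, which the labels do not state. With the block 10.5% of features passed in NOD against B6, and without it 12.2%. As deposited, the share of features past the threshold was 63.6% in NOD.H2h4, 1.2% in NOD and 9.73% in B6.NODIdd1,5 T cells minus kidney, against 39.5%, 12.2% and 21.0% after centring, and with scaled arrays it was 31.1% in NOD. Centring also set the direction of the calls, as 61.0% of calls were higher in NOD.H2h4, 55.4% in B6toNOD and 65.9% in NOD.H2h4 minus NOD after centring, against 3.75%, 9.5% and 1.54% as deposited.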
